A study of Mus musculus with 6 samples.

Results

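A set of 10 short structural RNAs that are neither messenger RNAs nor small nucleolar RNAs was followed in AML1-ETO9a leukaemia cells of mice, either wildtype for AES or lacking it. AES is a short co-repressor of the Groucho/TLE family. They were the RNase P RNAs Rpph1, Rprl1 and Rprl2, the RNase MRP RNA Rmrp, the 7SK RNA Rn7sk, the Y RNAs Rny1 and Rny3, the U12 small nuclear RNA Rnu12, the vault RNA Vaultrc5 and the telomerase RNA Terc. Each was taken by its symbol in the array annotation, by the probe set with the highest mean over the 6 arrays, and all 10 of 10 were measured among 19938 genes. The set was selected on these RNAs having been seen in an earlier look at their differences between the genotypes, and the probe set of each was chosen by its level. Their differences are therefore a description, and any p beside them comes from the fit over all genes and supports nothing.

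The cells came from fetal liver of day 14.5 embryos on a C57BL/6 background that carried either wildtype or floxed AES alleles. All were transduced with AML1-ETO9a, a shortened leukaemia fusion protein, and transplanted into mice, which received tamoxifen 4 weeks later to delete floxed AES. GFP-positive cells, those that express AML1-ETO9a, were sorted from the spleen, and total RNA was hybridised to one array per sample. The 3 AES wildtype samples were collected after the mice had died of leukaemia and the 3 AES knockout samples at the end of the experiment, so genotype and time of collection cannot be told apart. The labels used here name neither the Cre nor the recipient strain, and do not say whether each sample is a separate mouse, so a p-value here reflects only how these samples vary, which may be technical. Values are log2 values per probe set, and a level is never compared here between probe sets.

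AES itself, listed as Tle5, had log2 values between 11.10 and 11.13 in wildtype and between 8.80 and 9.33 in knockout cells (limma adjusted p = 0.234). Array medians ran from 6.47 to 6.65. With 3 arrays per group, precision is limited by their number. The Y-linked gene Eif2s3y lay between 9.61 and 9.80 in wildtype cells and at 9.73 on knockout replicate 2, against 4.09 and 5.26 on knockout replicates 1 and 3. The mean log2 value of 8 myeloid blast markers lay between 6.66 and 9.59 over the 6 arrays, and 2 of the 8 were above the array median on every array. The other marker lists covered neutrophils (7 measured genes), erythroid cells (4), B cells (5), T and NK cells (7), macrophages (7) and stroma and endothelium (5), and limma called 0 genes in each. In sorted bulk cells, fewer cells of a type and less RNA per cell cannot be told apart.

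RNase P trims the leader from precursor transfer RNAs, and RNase MRP, a related particle that shares most of its proteins, cuts precursor ribosomal RNA. The RNA part carries the catalytic core of RNase P. 7SK RNA holds the elongation kinase P-TEFb in an inactive pool, Y RNAs bind the Ro60 and La proteins, U12 acts in the minor spliceosome, vault RNA sits in the vault particle, and Terc is the template of telomerase. RNase P, RNase MRP, 7SK, Y and vault RNAs are made by RNA polymerase III, whereas mouse Terc and U12 are made by RNA polymerase II.

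Genomic sequence beside a pair of the members is shown because it holds the elements that make the promoters of RNase P, RNase MRP, 7SK and Y RNAs unusual: they lie in front of the gene, where transfer RNA genes carry theirs inside. No member had a promoter window of its own in the RefSeq-derived table (GRCm38.p6). Windows of the neighbours Parp2 and Ccdc107 reached the space beside Rpph1 and Rmrp. Both stretches below are on the minus strand, 5′ to 3′, and read towards the short RNA, with matches in capitals. The first, chr14:50807772-50807896, fills the 125 bases between Parp2 and Rpph1. The second, chr4:43493115-43493339, is 225 bases long and stops 55 bases short of the nearest annotated base of Rmrp.
Rpph1 with Parp2: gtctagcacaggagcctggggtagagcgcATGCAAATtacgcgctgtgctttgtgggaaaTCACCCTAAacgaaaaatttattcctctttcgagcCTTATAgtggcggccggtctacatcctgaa
Rmrp with Ccdc107: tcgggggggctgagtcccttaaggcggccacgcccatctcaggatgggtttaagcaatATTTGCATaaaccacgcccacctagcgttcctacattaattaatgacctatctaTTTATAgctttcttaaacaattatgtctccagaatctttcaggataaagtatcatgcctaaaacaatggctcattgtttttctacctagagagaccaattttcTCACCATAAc
The motifs searched on both strands were the octamer ATTTGCAT, the proximal sequence core TNACCNTNA and the TATA letters TATAAN, and no match overlapped another. In the Rpph1 stretch the octamer lay 88 bases, the proximal core 56 bases and the TATA letters 24 bases from the nearest annotated base of the RNA, in that order. The proximal core beside Rmrp also lay 56 bases from the RNA, and the octamer 214 bases. The TATA letters found there lay 162 bases away, and the nearest 55 bases were outside the window. The TATA letters of each stretch and the octamer beside Rpph1 matched on the strand opposite to the printed one. The remaining matches were on the printed strand. Among the 32851 promoter windows of the table, 0.825% held the octamer in the 125 bases before the start, 3.82% the proximal core and 12.2% the TATA letters. Over 225 bases the shares were 1.47%, 7.38% and 20.5%.

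All 10 RNAs had a lower mean in AES knockout than in wildtype cells, with log2 differences from -1.07 for Vaultrc5 to -0.02 for Rn7sk and a median of -0.43. Over all genes tested 49.1% had a lower mean, and the median difference was 0.003. No member passed the test: limma gave every one an adjusted p of 1.00, and called 0 of the 19938 genes (0%) in either direction, with 505 (2.53%) at an unadjusted p under 0.05. Of the members, 2 had such an unadjusted p, Vaultrc5 (0.00269) and Rpph1 (0.0193). For 3 members every knockout value lay below every wildtype value, as for 3.51% of all genes. Since the members were chosen with this contrast known, nothing is read from these counts.

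**Figure D1:**
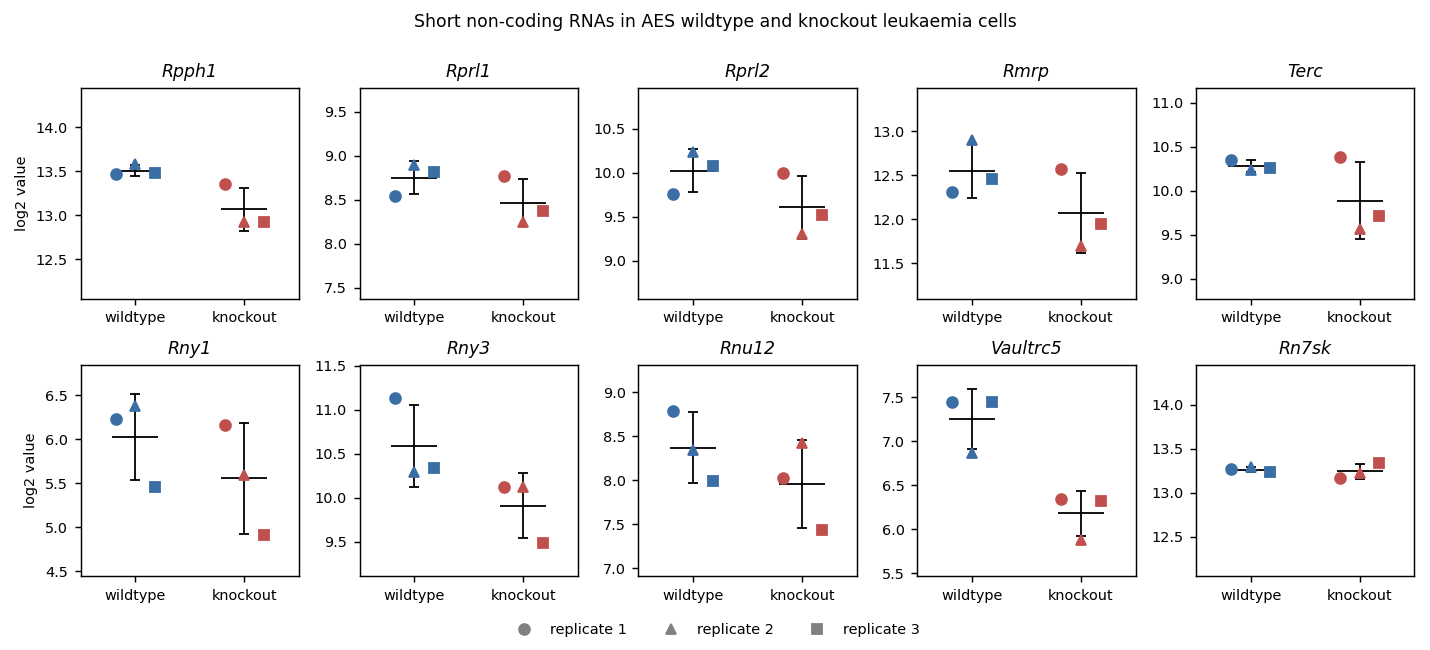
Log2 values of the 10 short RNAs on the 3 AES wildtype (blue) and 3 AES knockout (red) arrays, with the replicate shown by the symbol and the mean and SD as a bar with whiskers; every panel spans the same number of log2 units. The groups stand apart for Rpph1, Rny3 and Vaultrc5. Knockout replicate 1 lies within the wildtype values for Rprl1, Rprl2, Rmrp, Rny1 and Rnu12 and above them for Terc.

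Rpph1, the RNA of nuclear RNase P, had log2 values of 13.47, 13.58 and 13.48 on wildtype arrays 1 to 3 and 13.35, 12.92 and 12.92 on knockout arrays 1 to 3. The groups did not overlap, with knockout replicate 1 closest to the wildtype values. The means were 13.51 ± 0.061 and 13.07 ± 0.25 (SD, n = 3 each), a 1.36-fold lower level in knockout cells (log2 difference -0.44, SE 0.14, limma adjusted p = 1.00). Rprl2, annotated as a further RNase P RNA, had 9.76, 10.24 and 10.08 in wildtype and 10.001, 9.30 and 9.53 in knockout cells. Its groups overlapped, because knockout replicate 1 lay among the wildtype values. The log2 difference was -0.41 (95% interval -0.95 to 0.12). Rprl1 followed the same order of arrays, with 8.54, 8.90 and 8.81 against 8.77, 8.25 and 8.38 and a log2 difference of -0.29 (95% interval -0.70 to 0.13). The 3 entries belong to one class of RNA, and whether their probe sets tell them apart was not tested. With Rpph1 alone standing for RNase P, 8 of 8 RNAs had a lower mean and the median was -0.45.

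Rmrp, whose RNA forms the core of RNase MRP, had log2 values of 12.31, 12.90 and 12.46 in wildtype and 12.58, 11.70 and 11.95 in knockout cells. Knockout replicates 2 and 3 lay below the lowest wildtype value, and knockout replicate 1 lay above 2 of the 3. The log2 difference was -0.48 (SE 0.27, 95% interval -1.15 to 0.19). Terc, the telomerase RNA, had 10.35, 10.23 and 10.25 against 10.38, 9.56 and 9.71. Here the wildtype arrays were close together, knockout replicate 1 was the highest of all 6 arrays, and the other knockout arrays were the lowest. The log2 difference of Terc was -0.39 (95% interval -0.94 to 0.15).

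Rny3 and Rny1 are Y RNA genes that lie 6345 bases apart in the RefSeq table. Rny3 had log2 values of 11.13, 10.29 and 10.34 in wildtype and 10.13, 10.12 and 9.49 in knockout cells. Its groups did not overlap, with wildtype replicate 1 high and knockout replicate 3 low. The means were 10.59 ± 0.47 and 9.91 ± 0.37 (SD, n = 3 each), a 1.60-fold lower level (log2 difference -0.68, 95% interval -1.40 to 0.04), and the difference was -0.41 without wildtype replicate 1. Rny1 had 6.23, 6.38 and 5.46 against 6.17, 5.60 and 4.91. It lay below the array median on every array and no detection calls were used, so no fold is given for its log2 difference of -0.47 (95% interval -1.42 to 0.49). It was -0.14 without knockout replicate 3 and -0.29 without wildtype replicate 2, but -0.77 without knockout replicate 1 and -0.75 without wildtype replicate 3.

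Rnu12, the U12 RNA that recognises the branch site of minor introns, had log2 values of 8.79, 8.34 and 7.99 in wildtype and 8.02, 8.42 and 7.43 in knockout cells. The groups overlapped, and only knockout replicate 3 was below every wildtype value. The log2 difference of -0.41 (95% interval -1.19 to 0.36) was -0.15 without knockout replicate 3 and -0.20 without wildtype replicate 1, but -0.64 without knockout replicate 2 and -0.60 without wildtype replicate 3. Rny1, Rny3 and Rnu12 are the members whose RefSeq gene record spans under 200 nt, at 111, 101 and 150 nt. All of them were lowest on knockout replicate 3. The gene records of the remaining members span 238 to 397 nt, which need not be the length of the RNA. How well the RNeasy extraction kept short RNAs in each sample is not known and was not tested.

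Vaultrc5, a vault RNA by name, is classed in RefSeq as a long non-coding RNA with a gene record of 345 nt. Vaultrc5 had the lowest difference of the members. Its log2 values were 7.45, 6.86 and 7.44 in wildtype and 6.34, 5.88 and 6.32 in knockout cells. The groups stood apart by more than the SD of either. The means were 7.25 ± 0.34 and 6.18 ± 0.26 (SD, n = 3 each), with a log2 difference of -1.07 (95% interval -1.60 to -0.54, limma adjusted p = 1.00). With any single array left out it ran from -1.27 to -0.92. All knockout values were below the median of their arrays, where a level may be background, so no fold is given. Over all genes 0.772% had a difference as low or lower.

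Rn7sk, the 7SK RNA, had the smallest difference of the members. Its log2 values were 13.27, 13.29 and 13.24 in wildtype and 13.17, 13.23 and 13.34 in knockout cells, so the knockout arrays held both the lowest and the highest value. The log2 difference was -0.02 (95% interval -0.21 to 0.17), and it was 0.0088 with median centring of the arrays and 0.018 without knockout replicate 1. A further probe set of Rn7sk, the only other row of any member among rows with 1 symbol, had 12.51, 12.54 and 12.52 against 12.50, 12.49 and 12.46. There the groups did not overlap, at a log2 difference of -0.04 (95% interval -0.20 to 0.12).

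**Figure D2:**
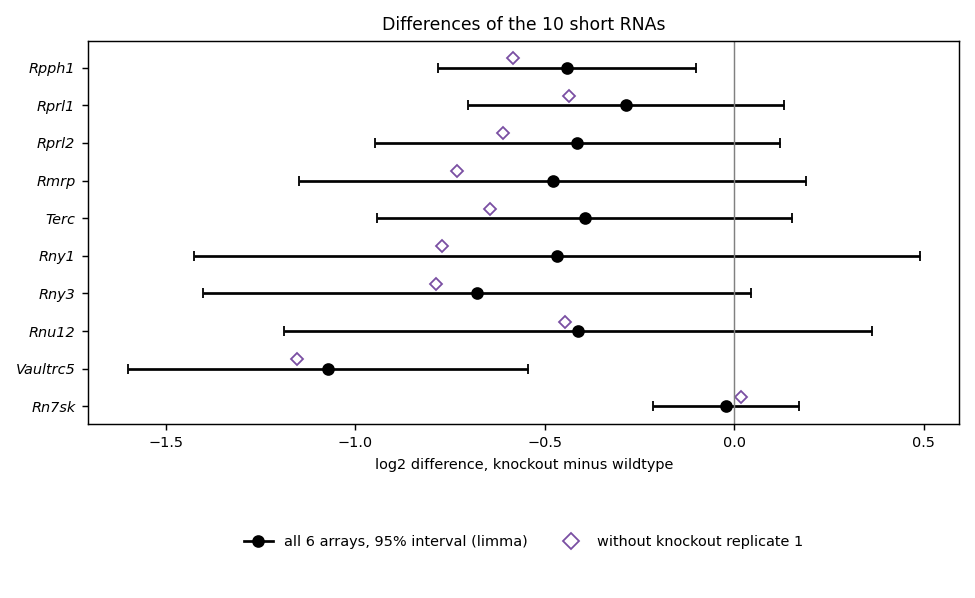
Log2 difference of each short RNA, AES knockout minus wildtype, with the 95% interval of limma (black, 3 arrays per group) and the difference without knockout replicate 1 (open diamonds). The intervals of Rpph1 and Vaultrc5 lie below 0 before adjustment over all genes, and Rn7sk sits at -0.02.

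The knockout arrays did not behave alike. Knockout replicate 2 was the lowest of the 6 arrays for Rprl1, Rprl2, Rmrp, Terc and Vaultrc5, and for Rpph1 it was level with knockout replicate 3 (12.9245 and 12.9249). Counting Rpph1, these are 6 of 10 members, against 15.8% of all genes with that array lowest. Knockout replicate 3 was the lowest for Rny1, Rny3 and Rnu12, 3 of 10, against 24.7% of all genes. No member was lowest on a wildtype array, against 26%, 12.5% and 9.64% of all genes lowest on wildtype replicates 1 to 3. Knockout replicate 1 lay within the wildtype values for 5 members, above them for Terc and below them for Rpph1, Rny3, Vaultrc5 and Rn7sk. Over all genes it lay within them for 48.2%, above them for 34.4% and below them for 17.5%. Without it, 7 of 10 members had every knockout value below every wildtype value, as for 11.6% of all genes, and the median difference was -0.63. These were the RNAs of RNase P, RNase MRP and telomerase, Rny3 and Vaultrc5. Rmrp had a difference of -0.73, Terc of -0.64, Rprl2 of -0.61, Rpph1 of -0.58 and Rprl1 of -0.44 without that array. Without knockout replicate 2 these 5 differences, in the same order, were -0.29, -0.23, -0.26, -0.37 and -0.18. The members' median difference was -0.33 without knockout replicate 2 and -0.34 without knockout replicate 3. The count of members whose groups stood apart is given only for the omission of knockout replicate 1. With each array left out in turn, 9 of 10 members kept a lower mean every time, all but Rn7sk, as did 21.5% of all genes. The choice of members with the contrast known favours low knockout arrays, so nothing is read from the counts in this paragraph either.

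The mean deviation of the RNase P, RNase MRP and telomerase RNAs (5 genes, grouped after their values were seen) from their 6-array mean was 0.06, 0.35 and 0.19 for wildtype replicates 1 to 3 and 0.19, -0.47 and -0.32 for knockout replicates 1 to 3. Neutrophil markers, genes of granules and late maturation such as S100a8, Ltf and Ngp, differed over the same arrays. The mean log2 value of the 7 markers was 9.14, 7.32 and 5.31 in wildtype and 5.19, 9.21 and 9.39 in knockout cells. Knockout replicates 2 and 3, where these RNAs were lowest, had the highest neutrophil markers. Wildtype replicate 1, also high in these markers, had the lowest wildtype values of Rprl1, Rprl2 and Rmrp but the highest of Terc. For Rpph1 it was nearly level with wildtype replicate 3 (13.4678 and 13.4772). Myeloid blast markers were highest on these same arrays, with means of 9.59, 7.70 and 7.06 in wildtype and 6.66, 8.49 and 9.17 in knockout cells. B cell markers had 7.07, 7.35 and 6.45 against 5.87, 7.15 and 7.70, and macrophage markers 8.02, 7.94 and 6.80 against 6.26, 6.87 and 8.65, so that these 4 lists were all lowest on knockout replicate 1. Erythroid markers (4 of 7 measured) had means of 10.64, 9.68 and 9.46 in wildtype and 10.21, 11.29 and 8.81 in knockout cells. The part of these markers in the result was not tested. The Y RNAs and U12 had another order of arrays, with mean deviations of 0.65, 0.27 and -0.14 in wildtype and 0.04, -0.02 and -0.79 in knockout cells. The 5 genes outside the lists whose values over the 6 arrays were most like the mean of the members were Cmtm2b, Lect2, Ccer1, AI854703 and Lmnb2, with Pearson r from 0.985 to 0.999, given as a description with no test. All but Lmnb2, a nuclear lamin at 8.62 in wildtype and 8.28 in knockout cells, lay below the array median on every array.

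**Figure D3:**
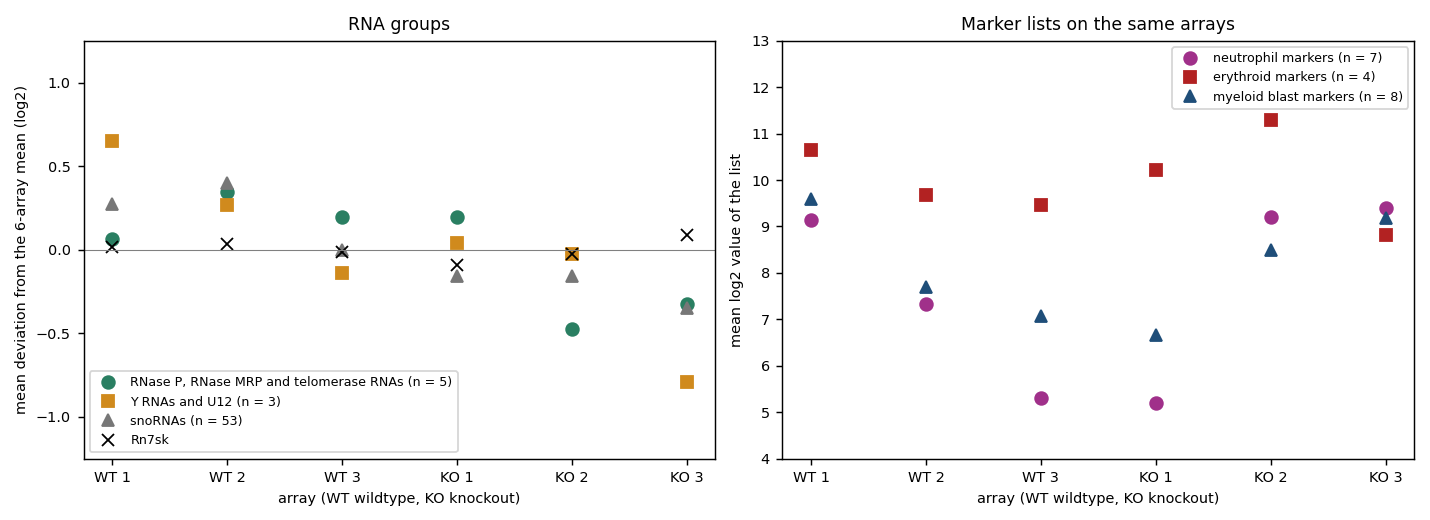
Left, mean deviation from the 6-array mean (log2) of 3 groups of RNAs and the deviation of Rn7sk on each array; right, mean log2 value of 3 marker lists on the same arrays (WT, AES wildtype; KO, AES knockout; numbers are replicates). RNase P, RNase MRP and telomerase RNAs are lowest on knockout replicates 2 and 3, at -0.47 and -0.32. There neutrophil markers lie at 9.21 and 9.39 and myeloid blast markers at 8.49 and 9.17.

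Small nucleolar RNAs, a further class of short RNAs, had a lower mean for 48 of 53 with a median difference of -0.36, and their mean deviations were 0.27, 0.40 and -0.004 in wildtype and -0.16, -0.16 and -0.35 in knockout cells. On knockout replicate 1 they lay at -0.16, where the RNase P, RNase MRP and telomerase RNAs lay at 0.19. This difference in pattern was not tested. MicroRNA hairpins, which are also short transcripts, had a lower mean for 170 of 297 (57.2%), with a median of -0.02 and array deviations between -0.06 and 0.05. Protein-coding genes had a lower mean for 48.6% of 18556 (median 0.004). Of the further small nuclear RNAs in a list of 21 names, 4 were measured under 1 symbol. Rnu3a, classed in RefSeq as a small nuclear RNA, is U3, a small nucleolar RNA that guides early cuts in ribosomal RNA. Its log2 difference was -0.87 (95% interval -2.28 to 0.54) with a wildtype spread from 9.19 to 11.39. Rnu5g, the spliceosomal U5 RNA, Rnu6, the U6 RNA, and Rnu7, which acts in histone mRNA processing, lay below every array median, with differences of -0.12, 0.01 and 0.27.

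The lists of proteins that bind, make or degrade these RNAs had median log2 differences between -0.11 and 0.09, and limma called 0 genes higher and 0 lower in each. At an unadjusted p under 0.05 stood 1 gene of these lists, Gtf3c3. Of the 11 proteins of RNase P and RNase MRP, all measured, 7 had lower and 4 higher means, with a median of -0.07 and a range from -0.20 to 0.09. Pop1, the largest subunit, lay at -0.20, Rpp25l at -0.14, Rpp25 at -0.07 and Pop4 at 0.09. Pop1 had log2 values of 8.26, 8.35 and 7.90 in wildtype and 8.23, 8.31 and 7.39 in knockout cells, so that knockout replicate 2, the lowest array for Rmrp, lay within the wildtype values of Pop1.

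The 7SK particle and P-TEFb list had 7 measured genes, of which 5 had lower means (median -0.02). Hexim1, which inhibits P-TEFb when bound to 7SK, lay at -0.24, the capping methyltransferase Mepce at 0.07, the 7SK-binding protein Larp7 at 0.05 and cyclin T1 (Ccnt1) at -0.03. Among 8 Y RNA-binding and La/Ro proteins 5 had lower means (median -0.05). Ro60, which binds Y RNAs, lay at -0.22 (95% interval -1.33 to 0.88), the La protein Ssb at -0.06, nucleolin (Ncl) at -0.07 and Hnrnpk at 0.05. Ro60 ran from 6.60 on knockout replicate 3 to 8.16 on knockout replicate 2, a spread wider than the difference between the groups.

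Of 10 measured proteins of the U12 spliceosome 3 had lower and 7 higher means (median 0.05). Rnpc3, which binds U12 RNA, lay at 0.25 (95% interval -0.05 to 0.55), Pdcd7 at 0.16 and Zmat5 at 0.10, while Snrnp48 lay at -0.19. Snrnp48 was 1 of 10 with every knockout value below every wildtype value, against 3.51% of all genes. The vault list had 1 measured gene of 3, the major vault protein Mvp, at -0.10 (95% interval -0.64 to 0.44). Telomerase proteins had lower means for 7 of 9, with a median of -0.11. The reverse transcriptase Tert lay at -0.10 and below every array median, dyskerin (Dkc1) at -0.08 and Nop10 at -0.21. Naf1, an assembly factor of box H/ACA particles, lay at 0.14, and Parn, a nuclease that trims Terc, at 0.28.

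**Figure D4:**
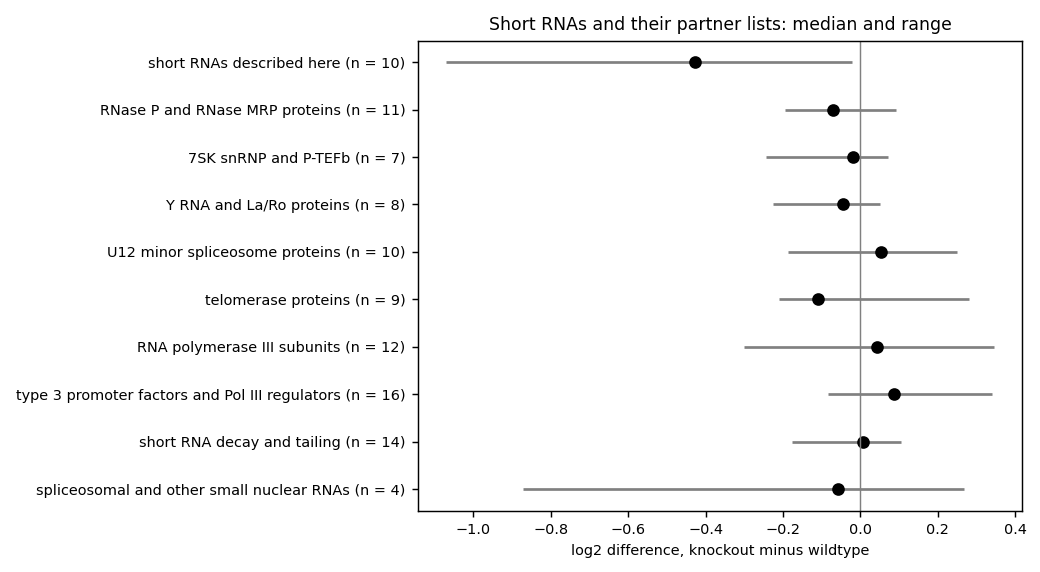
Median (points) and range (lines) of the log2 differences, AES knockout minus wildtype, for the 10 short RNAs and for lists of proteins or RNAs that work with them or make or degrade them; n is the number of measured genes. Medians of the lists lie between -0.11 and 0.09, and that of the short RNAs lies at -0.43.

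Subunits of RNA polymerase III had lower means for 5 of 12 (median 0.04). Polr1c, which polymerases I and III share, had log2 values of 10.84, 10.65 and 10.50 in wildtype and 10.44, 10.46 and 10.19 in knockout cells, with a difference of -0.30 (95% interval -0.61 to 0.01). Polr3g, the subunit typical of undifferentiated cells, had 7.61, 8.09 and 8.21 against 8.40, 8.28 and 8.28, a difference of 0.35 in the other direction. Polr3d lay at 0.15 and Polr3b at 0.17. Groups did not overlap for 3 of the 12, Polr1c with lower knockout values, as for 3.51% of all genes, and Polr3g and Polr3d with higher ones, as for 3.65%. Promoter factors and regulators had higher means for 12 of 16 (median 0.09). Gtf3c3, a subunit of TFIIIC, which recognises internal promoters, lay at 0.34 (limma adjusted p = 1.00) and was the 1 gene of this list whose groups did not overlap, with Gtf3c6 at 0.20, the TATA-binding protein Tbp at 0.14 and Maf1, a repressor of polymerase III, at 0.12. Factors of short RNA decay and tailing had lower means for 5 of 14 (median 0.008). Of these Mtrex, the helicase of the nuclear exosome, lay at -0.18, Zcchc8 at -0.14, Pnpt1 at -0.15 and Zcchc7 at 0.10.

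The nearest measured gene on each side of a member was read for the same contrast. Some lie far off, at gaps in the RefSeq table from 125 bases for Parp2 to 1546500 bases for Naaladl2. Of these 18 genes, 11 had a lower mean, the median difference was -0.04, and limma called 0 (0 at an unadjusted p under 0.05). Parp2, a poly(ADP-ribose) polymerase that shares the stretch printed for Rpph1, had log2 values of 9.43, 9.52 and 9.50 in wildtype and 9.61, 9.28 and 8.997 in knockout cells. Its groups overlapped through knockout replicate 1, the highest array, and the difference was -0.19 (95% interval -0.59 to 0.22). Ccdc107, which shares the stretch printed for Rmrp, had 8.81, 9.15 and 9.003 against 8.64, 8.47 and 8.87, with a difference of -0.33 (95% interval -0.68 to 0.02) and knockout replicate 2 the lowest array, as for Rmrp. The other knockout arrays differed between these genes. Ccdc107 lay below every wildtype value on knockout replicate 1 and within them on knockout replicate 3, and Rmrp the other way round. Around the Y RNAs, Ezh2 (186353 bases away) lay at -0.004 and Pdia4 (7960 bases) at -0.13. Poldip3 and Cyb5r3, 266 and 3700 bases from Rnu12, lay at 0.07 and 0.11. Tbl1xr1, 34775 bases from Rprl2, had a difference of 0.17, and the distant Naaladl2 of -0.003. Around Rn7sk, Cilk1 (3187 bases away) lay at 0.25 and Gsta4 (16332 bases) at -0.22. Around Vaultrc5, Zmat2 (2102 bases) lay at -0.17 and Gm6756 (118197 bases) at -0.19. On the other side of Rpph1, Ccnb1ip1 (11718 bases) lay at -0.08, and on that of Rmrp, Sit1 (9075 bases) at 0.11. For Terc they were Fcgr1 (120467 bases) at -0.20 and BC107364 (18954 bases) at 0.03. For Rprl1, in the immunoglobulin kappa region, they were Igkv4-91 (557833 bases) at -0.77 and Igkv4-55 (280100 bases) at 0.84, the latter with 10.75 on knockout replicate 3 against at most 7.03 on the other arrays.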

How the data were processed

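Total RNA of GFP-positive spleen cells (RNeasy extraction and biotin label, per the labels) was measured on 6 arrays. The authors deposited processed values that were taken as log2 from their range, 2.67 to 14.4; how probes were corrected, summarised and normalized is not given in the labels or files. Of 35512 rows, 1 had no value and 21789 had 1 gene symbol, which gave 19938 genes, each by its brightest row. Groups were taken from the labels. The genotypes were compared in limma 3.58.1 under R 4.3.3 (lmFit and eBayes, two-sided, no block, no filter, Benjamini-Hochberg over all genes at 0.05), tested on simulated data. Members and lists were chosen with earlier results of these data known. Named were all members, AES, up to 4 genes per list by smallest unadjusted p, 8 defining partners, small nuclear RNAs, nearest measured neighbours and 5 genes of like pattern. Lengths (the genomic span of the gene record), RNA classes, neighbours and sequences are RefSeq's (GRCm38.p6). Gene symbols of 19856 genes were matched by identifier. Alternatives were array weights, median centring or quantile normalization of the arrays, dropping dim genes (kept if above the array median on 3 or more arrays), a replicate block, averaging the rows of a gene, trend and robust options in eBayes, and omitting each array in turn. The planned offset before taking logs did not apply to values already logged. Figures used matplotlib 3.10.9.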

Additional observations from a re-analysis of the deposited data

How the results depend on the processing

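The members' median difference (-0.43) stayed below 0 under all alternatives, and all but Rn7sk kept a lower mean wherever they were tested. The replicate block and the trend and robust options leave every mean difference unchanged in this balanced design, so they could not move that median. The median was -0.44 with quantile normalization, -0.40 with median centring, -0.49 with array weights and between -0.63 (without knockout replicate 1) and -0.33 (without knockout replicate 2) with single arrays left out. Rn7sk turned to 0.0088 with median centring and ran from -0.070 (without knockout replicate 3) to 0.018 (without knockout replicate 1) over the single-array omissions, the cause of which was not tested. No member passed under any alternative, with limma adjusted p from 0.897 to 1.00. The count of genes called was 0 except without knockout replicate 2, where it was 3 (Tle5 and the Y-linked Kdm5d and Uty), so that it ran from 0 to 3. Knockout replicates 1 and 3, the ones then left, are those with low Y-linked genes, so for these genes genotype and Y-linked expression cannot be told apart there. With the filter on dim genes 9 members were kept, Rny1 was lost, and the list of further small nuclear RNAs was reduced to Rnu3a at -0.87. With the replicate block 0 genes were called, and the members' median of -0.43 could not change. The numbers were not taken as pairs, since the labels do not say that equal replicate numbers mark shared material. Same-numbered samples also did not deviate together (correlations of -0.26, -0.23 and 0.07 over all genes). Counting RNase P by Rpph1 alone, an alternative chosen after seeing the data, gave a median of -0.45. Signals below the array median, as for Rny1 and the knockout values of Vaultrc5, may be background, which limits what can be read from their size.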
